A study of Mus musculus with 6 samples.

Results

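The EGR and AP-1 immediate early genes were followed in the uterus just before embryo attachment. They were chosen by gene family, as *Egr1*, *Egr2* and *Egr3*, the FOS genes *Fos*, *Fosb*, *Fosl1* and *Fosl2*, and the JUN genes *Jun*, *Junb* and *Jund*, and were found by identifier among the 56748 genes listed per uterus. All 10 were listed, and 9 passed edgeR's filter on low counts. *Fosl1* did not pass it.

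RNA of whole uteri was sequenced from 3 control and 3 *Gp130* ecKO females on day 4 of pregnancy at 1600 h. All females were sexually mature, of C57BL/6 background, which the methods give as C57BL/6J, and mated with fertile wildtype males. The *Gp130* ecKO females were *Ltf* iCre/+ and *Gp130* flox/flox, so that iCre, driven from the lactoferrin locus, deletes the IL6 family receptor subunit Gp130 in the uterine epithelium. The labels call the controls WT, and the methods describe them as females with floxed *Gp130* and no iCre, or wildtype. *Ltf* is also active in some myeloid cells, and the RNA held epithelium, stroma, muscle, vessels and blood together, so fewer cells of a type and less RNA per cell cannot be told apart. Expected counts summed to 13960748 to 25906443 per uterus, and the shallowest was control 3. Levels are given as CPM, the count relative to the library size after scaling by TMM, and values of a group follow the order of replicates 1, 2 and 3. Each label gives a group and a replicate number, and each was read as a separate uterus. A p sets the difference between the groups against the spread of these 6 uteri within their groups.

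Immediate early genes are transcribed within minutes of a stimulus without new protein synthesis, usually through the ERK cascade and serum response factor. EGR proteins are zinc finger factors that bind GC-rich sites. FOS proteins bind DNA only as dimers with JUN proteins, whereas JUN proteins also pair with each other, and these dimers are called AP-1. In the uterus, such genes are known to respond quickly to estrogen, to growth factors and to LIF, whose signal passes through Gp130.

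The targeted gene *Il6st*, which encodes Gp130, had 631, 678 and 452 CPM in the control and 388, 349.8 and 362 CPM in *Gp130* ecKO. It was lower in all 3 *Gp130* ecKO uteri, by 0.68 ± 0.21 on the log2 scale (estimate ± standard error), with an adjusted p of 0.120 from edgeR. Counts over the whole gene also include its stromal transcripts and any transcript that lost only the floxed part.

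Promoters were read first, since several of the genes were lower together. The search took the bases from 500 before to 50 after the start of the canonical transcript in GENCODE M39, on GRCm39, for 21578 protein-coding genes and on both strands. The promoters of *Egr1* and *Egr3* were not searched. The CArG box, the site of serum response factor with CC and GG around a run of A and T, occurred in 2.89% of all promoters and in those of *Egr2*, *Fos* and *Fosb*. In all 3 the letters CGTCA, which are a part of the cyclic AMP response element, began 7 bases after the box. The sequences are printed because these 3 members share this arrangement and were lower, and a relation between the 2 was not tested. Capitals mark the CArG box and CGTCA, and each run is 100 bases long, 5′ to 3′ on the strand of the gene. They come from chr10:67373582-67373681 for *Egr2* and chr12:85520310-85520409 for *Fos*, both on the plus strand, and chr7:19044188-19044287 on the minus strand for *Fosb*.
Egr2: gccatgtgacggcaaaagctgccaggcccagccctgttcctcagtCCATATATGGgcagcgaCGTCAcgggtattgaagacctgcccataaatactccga
Fos: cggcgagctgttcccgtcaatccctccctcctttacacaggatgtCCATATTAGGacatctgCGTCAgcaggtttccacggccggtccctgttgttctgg
Fosb: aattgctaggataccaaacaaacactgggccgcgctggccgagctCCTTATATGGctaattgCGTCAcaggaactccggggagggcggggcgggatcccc

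The CArG box shown began 65 bases before the transcript start in *Egr2*, 303 in *Fos* and 266 in *Fosb*. *Egr2* had another CArG box at 368 bases before its start. *Egr2* and *Fosb* had 9 of 10 bases of the box and 36 of 100 bases of the windows in common, whereas *Fos* and *Fosb* shared 7 of 10 and 38 of 100. The box followed after 7 bases by CGTCA was found in 5 of the 21578 promoters, 0.0232% of them. These were the 3 members, *Dusp5*, which encodes an ERK phosphatase, and *Sik3*, which encodes a salt-inducible kinase. Over the other spacings from 0 to 20 bases, at most 3 promoters held the arrangement at any spacing, and 0 of them were members. This search was chosen after the sequences had been seen, and *Dusp5* and *Sik3* are named from its outcome.

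Of the 29 other immediate early genes listed further on, 0 had a CArG box in this window. The full cyclic AMP response element TGACGTCA occurred in 2.72% of all promoters and, among the members, in *Jund*. The AP-1 site TGACTCA (8.21% of promoters) and the STAT motif TTCNNNGAA (16.4%) were in 0 of the 8 members searched. The EGR site GCGGGGGCG or GCGTGGGCG (4.61%) was in *Fosb* and *Jund*, and TATAAA (25.3%) in *Fos*, *Fosl1* and *Junb*. No match of these motifs in a member overlapped a match of another, apart from the box within the longer arrangement. A match describes letters in the sequence and not binding, and sites outside the window were not searched. The map of matches in the 8 promoters shows these positions.

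**Figure D1:**
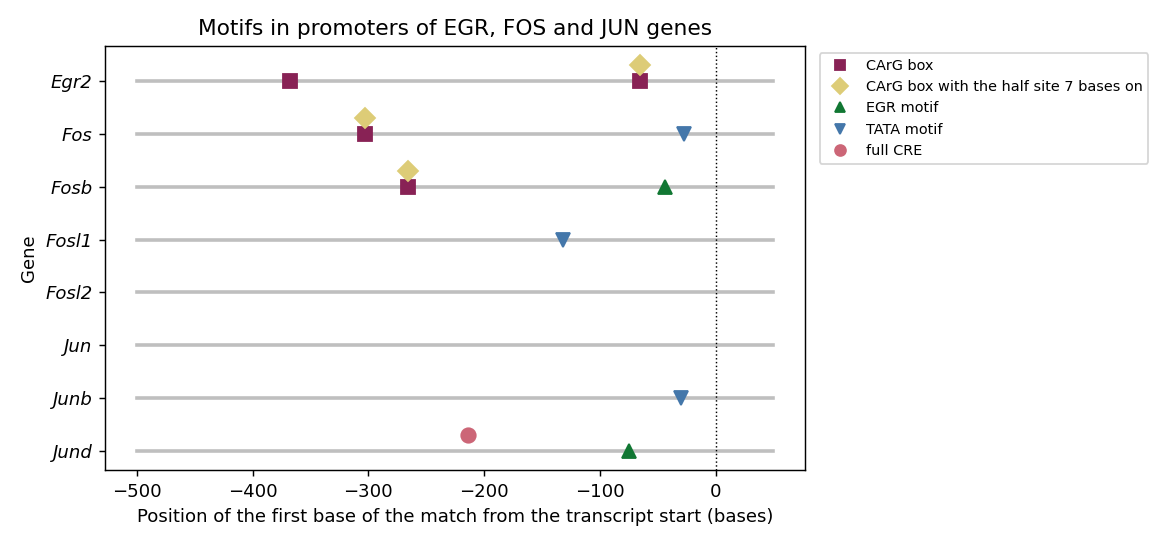
Positions of motif matches in 8 promoters, in bases from the start of the canonical transcript (dotted line, negative values upstream), with 1 row per gene and 1 symbol per motif. The CArG box followed after 7 bases by CGTCA (diamonds) lies at −65 in *Egr2*, −303 in *Fos* and −266 in *Fosb*, and the rows of *Fosl2* and *Jun* hold no match.

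Counted over the family, 7 of the 9 tested members (*Egr1*, *Egr2*, *Egr3*, *Fos*, *Fosb*, *Junb* and *Jund*) were lower in each *Gp130* ecKO uterus than in any control uterus, which held for 15.6% of the 16605 tested genes. The opposite order held for 0 members and for 15.7% of all genes. The same 7 had an unadjusted p under 0.05 in edgeR's quasi-likelihood test and all 7 were lower, against 12.9% of all genes lower and 12.1% higher at that level. At an FDR under 0.05 with more than a 2-fold change, the quasi-likelihood test called 0 members and 0.157% of all genes. With the same thresholds, edgeR's exact test called 6 members lower (all of the 7 but *Jund*) and 3.79% of all genes lower. DESeq2 called 5 of them lower and 4.9% of all genes lower. It gave *Egr3* neither an unadjusted nor an adjusted p. At an FDR under 0.1, the quasi-likelihood test called *Egr1*, *Fos*, *Fosb* and *Junb* at more than 2-fold, and 2.45% of all genes were called lower. The median log2 fold change of the 9 members was −2.36, and that of all tested genes −0.05. The members were chosen with earlier results of these data known, so these counts and shares are descriptive.

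**Figure D2:**
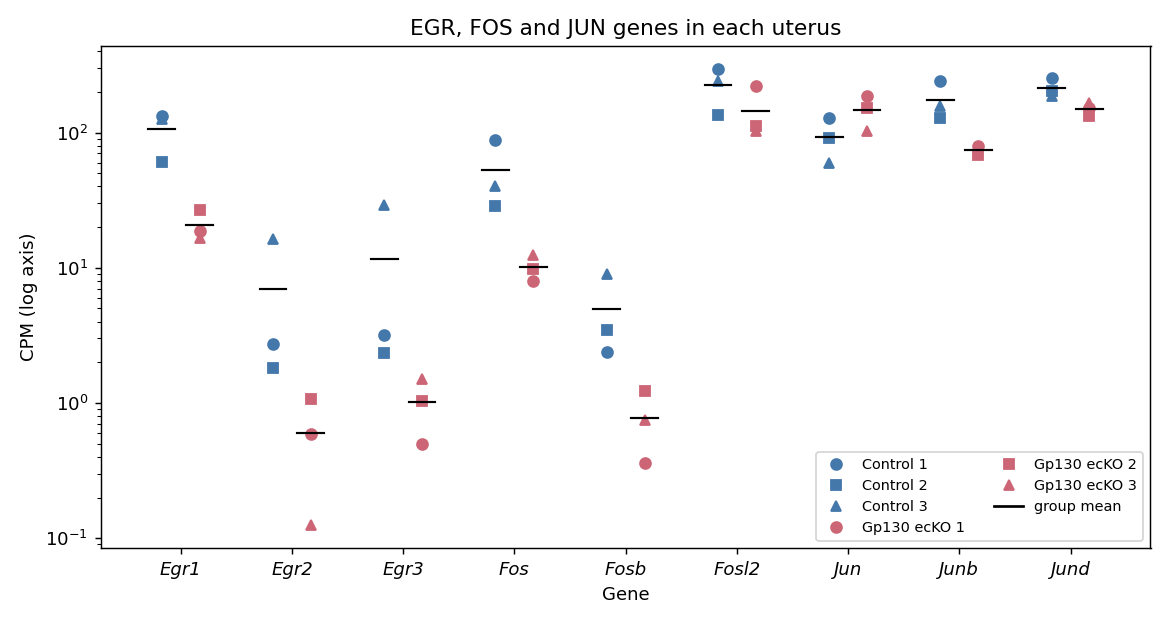
CPM of 9 genes in each uterus on a log axis, with controls in blue, *Gp130* ecKO in red, a symbol per replicate and the group mean as a bar. *Fosl1* is left out because it had 0 counts in 4 of the 6 uteri. The red symbols of *Egr1*, *Egr2*, *Egr3*, *Fos*, *Fosb*, *Junb* and *Jund* all lie below the blue ones, and those of *Jun* lie mostly above.

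Among the EGR genes, *Egr1* (ENSMUSG00000038418, chromosome 18 of GRCm39, 34992876 to 34998049), the best known early response gene of the family, had 132, 60.5 and 125 CPM in the control and 18.7, 26.8 and 16.5 CPM in *Gp130* ecKO. Control 2 was the lowest control and was still more than any *Gp130* ecKO uterus. The group means were 106 ± 39.6 and 20.7 ± 5.39 CPM (SD, n = 3), a 5.13-fold lower level. The change was −2.36 ± 0.34 on the log2 scale with an adjusted p of 0.0548 from edgeR's quasi-likelihood test. Leaving out any of the uteri kept it between −2.61 and −2.13.

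*Egr2* (ENSMUSG00000037868, chromosome 10, 67371305 to 67378018), known from hindbrain patterning and myelination, was weakly expressed, at 2.75, 1.81 and 16.3 CPM in the control and 0.588, 1.08 and 0.124 CPM in *Gp130* ecKO. Control 3 was far above the others, and the lowest value, in *Gp130* ecKO 3, rested on 3 counts. The groups did not overlap. The change was −3.48 ± 1.03 (log2, adjusted p of 0.115 from edgeR), −1.91 without control 3 and −4.25 without *Gp130* ecKO 2.

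*Egr3* (ENSMUSG00000033730, chromosome 14, 70314350 to 70320063), a close relative that binds the same sites, followed the same order of uteri in the control, with 3.20, 2.35 and 29.1 CPM. It had 0.497, 1.04 and 1.49 CPM in *Gp130* ecKO. Its change was −3.48 ± 1.06 (log2, adjusted p of 0.118 from edgeR) and −1.45 without control 3. Leaving out control 3, the shallowest library, thus moved *Egr2* and *Egr3* far more than *Egr1*. *Egr4*, the remaining EGR gene, had at most 3 counts in any uterus and was not tested.

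Per length, *Egr1* made up most of the EGR transcripts. In TPM, the deposited level scaled for length and depth, the 3 EGR genes summed to 56.6, 27.7 and 76.9 in the control and to 9.19, 14.6 and 7.37 in *Gp130* ecKO. *Egr1* was 96.0%, 94.2% and 75.3% of that sum in the control and 94.6%, 92.0% and 92.7% in *Gp130* ecKO. The share was thus similar in 5 uteri and lower in control 3, where *Egr2* and *Egr3* were highest.

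Among the FOS genes, *Fos* (ENSMUSG00000021250, chromosome 12, 85520658 to 85524047), which encodes the classical AP-1 partner of JUN, had 88.4, 28.8 and 40.1 CPM in the control and 8.05, 9.81 and 12.4 CPM in *Gp130* ecKO. Control 1 was the highest, and the *Gp130* ecKO uteri lay close together below all controls. The means were 52.4 ± 31.7 and 10.1 ± 2.19 CPM (SD, n = 3). The change was −2.38 ± 0.43 (log2, adjusted p of 0.0638 from edgeR) and −1.74 without control 1.

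*Fosb* (ENSMUSG00000003545, chromosome 7, 19036621 to 19043976), whose transcript also gives a shortened protein by splicing, had 2.39, 3.47 and 8.93 CPM in the control and 0.362, 1.23 and 0.746 CPM in *Gp130* ecKO. The groups did not overlap, and control 3 was again the highest. The change was −2.61 ± 0.66 (log2, adjusted p of 0.0938 from edgeR) and −1.89 without control 3.

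*Fosl1* (ENSMUSG00000024912, chromosome 19, 5497575 to 5505974), which encodes FRA1 and lacks a strong activation domain, had expected counts of 3.18, 0 and 26.35 in the control and 0 in all 3 *Gp130* ecKO uteri. With a floor of 3 counts per library, a mean of 0.126 CPM, the *Gp130* ecKO level was at least 4.67-fold lower. This rested on control 3, and without it both groups were at or under the floor. In edgeR's quasi-likelihood fit without a filter, over 29916 genes, its unadjusted p was 0.0505 and its adjusted p 0.299.

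*Fosl2* (ENSMUSG00000029135, chromosome 5, 32292707 to 32315186), which encodes FRA2, has the longest transcript of the members. It had 296, 135 and 240.1 CPM in the control and 219.9, 111 and 103 CPM in *Gp130* ecKO. The groups overlapped, since *Gp130* ecKO 1 was above control 2. The change was −0.63 ± 0.38 (log2, adjusted p of 0.333 from edgeR), −1.06 without *Gp130* ecKO 1 and −0.35 without control 1.

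The JUN genes did not share a direction. *Jun* (ENSMUSG00000052684, chromosome 4, 94937271 to 94940459), the gene without introns that encodes c-Jun, had 127, 91.8 and 59.6 CPM in the control and 185, 153 and 103 CPM in *Gp130* ecKO. *Gp130* ecKO 1 and 2 were above all controls, while *Gp130* ecKO 3 was below control 1. The change was 0.66 ± 0.32 (log2, adjusted p of 0.241 from edgeR), between 0.42 without control 3 and 0.98 without control 1.

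*Junb* (ENSMUSG00000052837, chromosome 8, 85701113 to 85705359), a JUN protein known to restrain c-Jun in many settings, had 242, 127 and 157 CPM in the control and 79.9, 68.6 and 76.0 CPM in *Gp130* ecKO. The *Gp130* ecKO values were narrowly spread and below all controls. The means were 175 ± 59.5 and 74.8 ± 5.77 CPM (SD, n = 3), a 2.34-fold lower level. The change was −1.23 ± 0.25 (log2, adjusted p of 0.0729 from edgeR), with a range of −1.38 to −0.89 when any of the uteri was left out.

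*Jund* (ENSMUSG00000071076, chromosome 8, 71151599 to 71153265), the steadily expressed JUN gene, had 253, 203 and 187 CPM in the control and 153, 132 and 165 CPM in *Gp130* ecKO. The groups did not overlap, but the gap was small, and the mean in *Gp130* ecKO was 70.1% of that in the control. The change was −0.51 ± 0.18 (log2, adjusted p of 0.149 from edgeR), between −0.60 without control 3 and −0.35 without control 1. Its unadjusted p from edgeR rose above 0.05 without control 1 (0.121), control 2 (0.0503), *Gp130* ecKO 1 (0.0608) or *Gp130* ecKO 2 (0.0962).

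Each of the 9 tested members was also tested alone by exact permutation of the uteri on log2(CPM + 0.5), two-sided. The 7 members without overlap had an exact p of 0.1, which is the smallest possible with 3 uteri per group, and *Fosl2* and *Jun* had an exact p of 0.2. The plot of changes shows how far each estimate moved with the uterus left out.

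**Figure D3:**
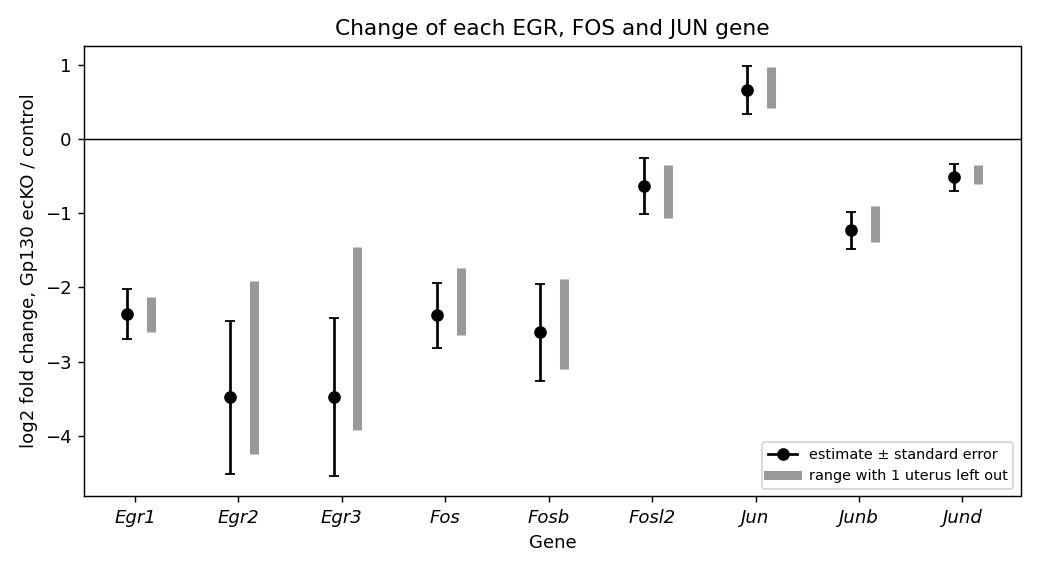
Change of each gene from edgeR on the log2 scale, as the estimate with its standard error (black) and the range of estimates when each uterus was left out in turn (grey). *Egr1* spans −2.61 to −2.13, *Egr3* spans −3.92 to −1.45, and *Jun* alone lies above 0.

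Ordered by mean TPM in the control, *Jund* (174) came first, then *Junb* (131), *Egr1* (46.1), *Fosl2* (45.7), *Fos* (38.9), *Jun* (38.4), *Egr3* (4.15), *Egr2* (3.49), *Fosb* (1.87) and *Fosl1* (0.573). *Jund* and *Junb* overlapped over the 3 uteri, as did *Egr1*, *Fosl2*, *Fos* and *Jun* among themselves and the last 4 among themselves. The lowest *Junb* value, 95.1 TPM, was above the highest of the next 4 genes, 60.4 TPM for *Fos* in control 1. In *Gp130* ecKO the order was *Jund* (129), *Jun* (65.9), *Junb* (59.3), *Fosl2* (31.9), *Egr1* (9.65), *Fos* (7.82), *Egr3* (0.423), *Egr2* (0.313), *Fosb* (0.307) and *Fosl1* (0). There *Jun* overlapped with *Junb* and with *Fosl2*, *Egr1* overlapped with *Fos*, *Egr3*, *Egr2* and *Fosb* overlapped among themselves, and *Jund* was above all others in every uterus.

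As shares of the summed TPM of the 7 FOS and JUN genes, *Jun* was 9.39%, 11.0% and 6.50% in the control and 24.6%, 25.2% and 16.2% in *Gp130* ecKO. *Junb* was 32.1%, 27.3% and 30.7% in the control and 19.1%, 20.3% and 21.5% in *Gp130* ecKO. *Fos* was 11.3%, 6.02% and 8.68% in the control and 2.08%, 2.89% and 3.17% in *Gp130* ecKO. These 3 shares separated the groups, *Jun* being higher and *Junb* and *Fos* lower in *Gp130* ecKO. *Jund* took 36.5% to 47.5% of the sum in the control and 39.6% to 51.0% in *Gp130* ecKO, and *Fosl2* took 7.84% to 13.05% and 7.95% to 14.6%, both with overlap. A share depends on all genes in the sum, which was 536, 348 and 408 TPM in the control and 336, 294 and 252 TPM in *Gp130* ecKO.

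The ratio of *Jun* to *Junb* TPM was 0.293, 0.402 and 0.212 in the control and 1.29, 1.24 and 0.755 in *Gp130* ecKO. The ratio of *Fos* to *Fosl2* TPM was 1.06, 0.768 and 0.665 in the control and 0.142, 0.319 and 0.399 in *Gp130* ecKO. Both ratios did not overlap between the groups, they were picked after the values were seen, and no test was made of them. The ratio of all FOS to all JUN transcripts did overlap, at 0.283, 0.166 and 0.298 in the control and 0.200, 0.138 and 0.126 in *Gp130* ecKO. The plot of shares shows these levels side by side. Protein and dimers were not measured.

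**Figure D4:**
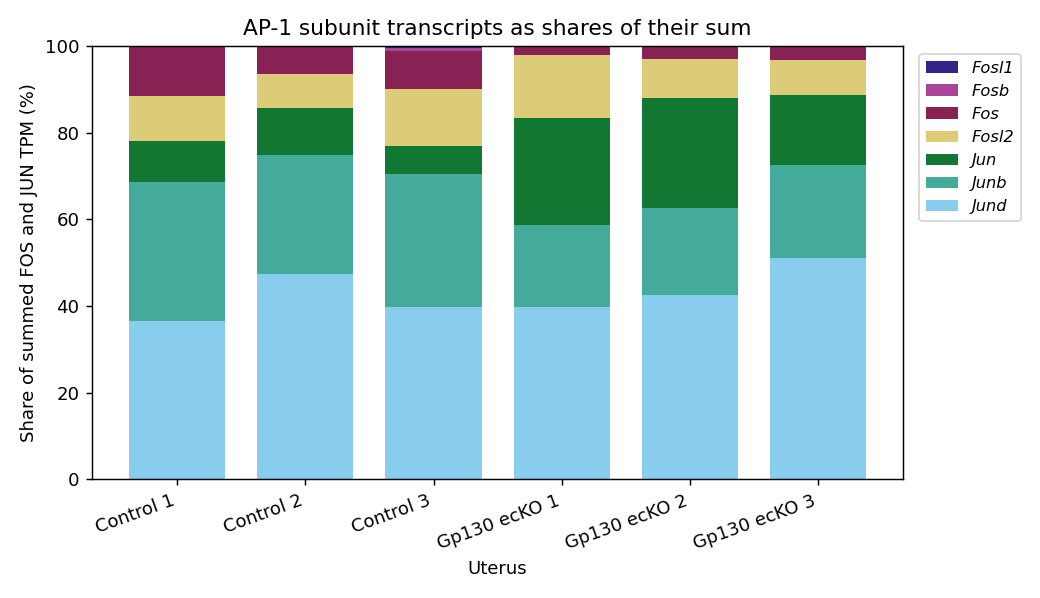
Share of each FOS and JUN gene in their summed TPM, in percent, stacked for each of the 6 uteri. *Jun* takes 16.2% to 25.2% in *Gp130* ecKO against 6.50% to 11.0% in the control, and *Fos* takes 2.08% to 3.17% against 6.02% to 11.3%.

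The gene length that RSEM derived from its mix of transcripts was the same in all uteri for *Jun* (3189 bases), *Junb* (1809) and *Jund* (1667), which have a single length in the tables. For *Fos* it ranged from 1643 to 1879 bases in the control and from 1677 to 1994 in *Gp130* ecKO, so the groups overlapped. *Egr3* had 2651 bases in *Gp130* ecKO 2, from 27 counts, against 3783 to 3940 in the other uteri. Some expected counts of *Jun*, *Jund* and *Fosl1* were not whole numbers, which RSEM gives where it divides reads between genes.

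Profiles over the 6 uteri were compared by the root mean square difference of log2(CPM + 0.5) after centring each gene on its mean, given without a test. The 0.5 added to each value flattens the profiles of weak genes. Among members, the closest were *Junb* and *Jund* (0.383), *Fosl2* and *Junb* (0.431) and *Egr1* and *Fos* (0.432), and the farthest were *Egr3* and *Jun* (2.05). *Egr2* and *Egr3*, which share the high value of control 3, were at 0.618. Over all other tested genes with a mean of at least 1 CPM, those nearest to *Egr1* were *B930092H01Rik* (0.240), *Sox11* (0.281), which encodes an HMG box factor, and *Socs3* (0.290), which encodes the feedback inhibitor of Gp130 signaling. Those nearest to *Fos* were *Lgmn* (0.182), which encodes a lysosomal protease, *Nfil3* (0.252), which encodes a bZIP repressor, and *Sox11* (0.260). *B930092H01Rik* and *Sox11* passed the minimum of 1 CPM through the controls and had at most 0.249 CPM in each *Gp130* ecKO uterus. The floor of 3 counts lies at 0.116 to 0.137 CPM there, so some of these values were under it. Their log2 changes of −4.43 and −3.58 rest on few counts and are not ranked against those of *Egr1* and *Fos*. The nearness of both holds on this scale only.

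The genes outside the family that held the same promoter arrangement differed from each other. *Dusp5* had 8.70, 4.78 and 14.1 CPM in the control and 3.66, 3.27 and 3.19 CPM in *Gp130* ecKO, without overlap (log2 change −1.43 ± 0.42, adjusted p of 0.113 from edgeR). *Sik3* had 50.4, 44.7 and 46.5 CPM in the control and 55.9, 51.2 and 38.9 CPM in *Gp130* ecKO, with overlap (log2 change 0.04 ± 0.18, adjusted p of 0.894 from edgeR).

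The wider pathway was read from lists of 6 kinds, in none of which edgeR's quasi-likelihood test called a gene at an FDR under 0.05. With more than a 2-fold change at that FDR, edgeR's exact test and DESeq2 called 7 and 8 of the other immediate early genes lower. Both called 4 bZIP partners of AP-1, 6 textbook targets and 1 corepressor lower, against 3.79% and 4.9% of all genes. Each also called 1 gene higher among the early genes, the bZIP partners and the targets. Upstream and among heat shock genes, both called 0. Of the corepressors that bind EGR proteins, *Nab2*, itself an EGR target, was lower in every *Gp130* ecKO uterus (log2 change −1.63, adjusted p of 0.0831 from edgeR), and *Nab1* was higher in every one of them (0.44, adjusted p of 0.204). Of 28 tested other immediate early genes, 11 had an unadjusted p under 0.05 with lower values and 1 with higher values. Over all tested genes, 12.9% were lower and 12.1% higher at that level. The median change of the 28 was −0.58. The lower ones included the orphan nuclear receptor genes *Nr4a3* (−4.30, and −3.07 without control 3) and *Nr4a1* (−1.97), the matricellular gene *Ccn1* (−1.67, and −1.01 without control 1) and the stress factor gene *Atf3* (−1.42). The higher one was *Ier3* (1.34), named after its values were seen.

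Upstream of the members, 20 genes of the ERK cascade, of the other MAP kinases and of serum response factor and its partners had a median change of 0.07. At an unadjusted p under 0.05, 1 was lower and 1 higher, against 12.9% and 12.1% of all tested genes. The lower one was *Elk4*, a partner of serum response factor (−0.60, but −0.29 with a p of 0.135 from edgeR without control 3). The higher one was *Braf*, named after its values were seen (0.68, with overlap). *Mapk7*, which encodes ERK5, had a change of −0.48, and the RSK kinase genes *Rps6ka3* and *Rps6ka1* had 0.36 each, without overlap between the groups and with p above that level. *Mapk7* went to 0.01 in limma on log2(TPM + 0.5).

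Of 14 bZIP partners and competitors of AP-1, 6 were lower and 1 higher at an unadjusted p under 0.05. The shares of all tested genes were 12.9% lower and 12.1% higher, and the list median was −0.48. *Nfil3* (−2.40), *Batf3* (−1.68) and *Maf* (−1.24, adjusted p of 0.0548 from edgeR) were lower in every *Gp130* ecKO uterus. The higher one was *Jdp2* (1.48), named after its values were seen, which encodes a dimer partner of c-Jun.

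Of 18 tested textbook targets of AP-1 and EGR1, 9 were lower and 2 higher at an unadjusted p under 0.05. Among all tested genes, 12.9% were lower and 12.1% higher at that level. The median of the targets was −0.80. The largest changes were those of the protease inhibitor gene *Timp1* (−2.46, adjusted p of 0.0597 from edgeR), the TWEAK receptor gene *Tnfrsf12a* (−2.31, and −1.42 without control 3), the stromelysin gene *Mmp3* (−1.74) and the growth factor gene *Pdgfb* (−1.71, adjusted p of 0.0744). The higher ones were the tissue factor gene *F3* (1.55) and *Thbs1* (0.79), both named after their values were seen. The plot of lists sets these changes beside those of the members.

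**Figure D5:**
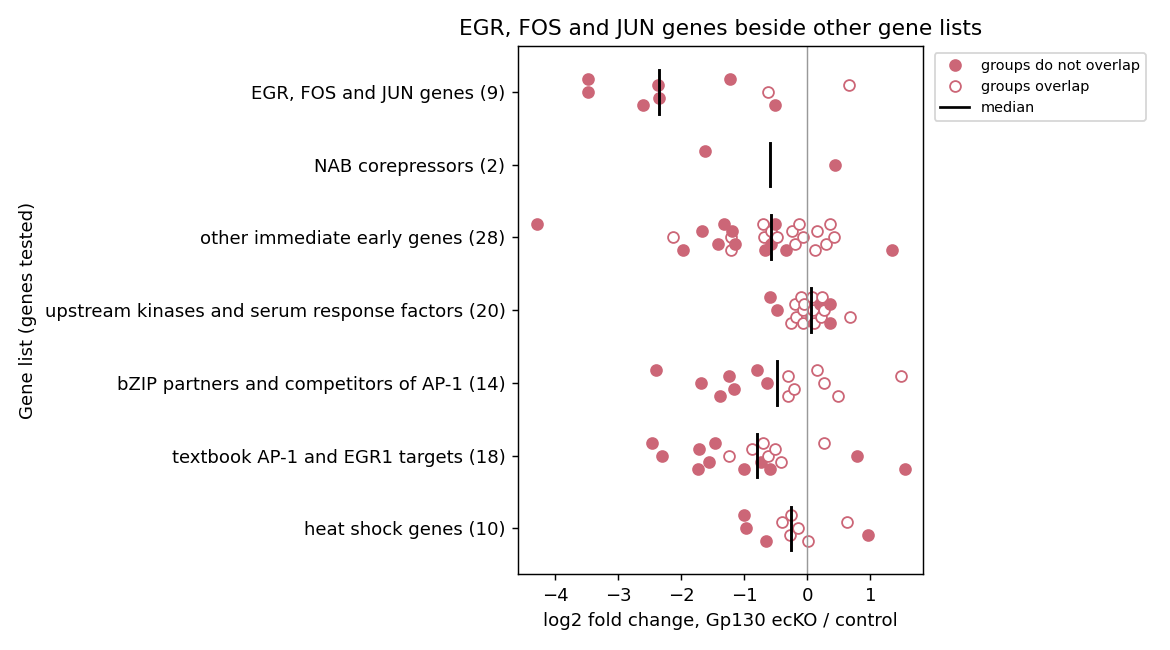
log2 fold change of each tested gene in the EGR, FOS and JUN genes and in 6 lists, with the number tested in parentheses, filled where the groups do not overlap, and the list median as a bar. The median is −2.36 for the EGR, FOS and JUN genes, between −0.80 and −0.26 for 5 lists and 0.07 for the upstream kinases and serum response factors.

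Early response and heat shock genes are both known to react to tissue handling. Of 10 heat shock genes, 3 were lower (*Hspe1*, −0.999, *Hsph1*, −0.98, which was −0.42 without control 3, and *Hspd1*, −0.66) and 1 higher (*Hspa1b*, 0.95, which was 0.52 without *Gp130* ecKO 1) at an unadjusted p under 0.05, and their summed TPM was 3649 to 5253 in the control and 3694 to 4169 in *Gp130* ecKO. Summed markers of epithelium ran from 2016 to 3520 TPM in the control and from 4856 to 7141 TPM in *Gp130* ecKO, with 4 of 10 higher at that level. Markers of stroma ran from 2063 to 2365 and from 1185 to 1677 TPM, with 6 of 10 lower. Markers of endothelium ran from 177 to 458 and from 115 to 182 TPM, with 5 of 6 lower, and overlapped between the groups. The ranges also overlapped for smooth muscle (440.1 to 2072 and 376 to 2358 TPM), macrophages (144 to 248 and 84.4 to 212), neutrophils (8.03 to 17.8 and 1.91 to 9.71), T and NK cells (30.6 to 46.0 and 9.33 to 50.2), red blood cells (481 to 881 and 106 to 1006) and the blastocyst (2.73 to 11.4 and 4.33 to 4.83). At an unadjusted p under 0.05, 12.9% of all genes were lower and 12.1% higher. At that level, 2 of 4 tested neutrophil markers (*S100a8* and *S100a9*), 1 of 7 macrophage markers (*Mrc1*) and 1 of 3 tested blastocyst markers (*Gata3*) were lower. The same held for 0 markers of smooth muscle, T and NK cells or red blood cells. *S100a8* and *S100a9* passed the filter on low counts through the controls, while the neutrophil marker *Ly6g* (1.08) and the macrophage marker *Cd68* (0.39) had higher means in *Gp130* ecKO with overlap. These 6 markers are named after their values were seen. No marker was at 0 in all uteri, and the part of these differences in the levels of the members was not tested.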

How the data were processed

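The members and gene lists were chosen with earlier results of these data known. The authors made strand-specific poly(A) libraries from whole uteri and read them as single reads, trimmed them with fastp 0.23.2, removed ribosomal RNA reads with SortMeRNA, mapped them to GRCm39 with STAR 2.7.10a and counted them with RSEM 1.3.3. They deposited, per gene and uterus, the expected count, which is not normalized, TPM and FPKM, both scaled for length and depth, and the gene lengths. The deposited FPKM was not used here. The annotation version and the use of strand in counting are not given in the sources used here. Names and positions came from GENCODE M39, which holds 56017 of the 56748 identifiers.

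The expected counts, rounded, were fitted with edgeR 4.0.16 (R 4.3.3) after filterByExpr and TMM scaling, and the groups were compared by the quasi-likelihood test (glmQLFit with legacy set to FALSE), with Benjamini-Hochberg adjustment over 16605 genes. Calls need an FDR under 0.05 and more than a 2-fold change. Standard errors are the log2 fold change over the square root of F. The code was tested on simulated data. Alternatives were edgeR's exact, likelihood ratio and legacy tests, DESeq2 1.42.0, limma 3.58.1 (voom, and trend on log2(TPM + 0.5)), other scalings and filters, counts without rounding, a block for the replicate number, an FDR of 0.1, and each uterus left out. Counting error alone underlies the floor of 3 counts. No pair of libraries of a group had nearly identical counts.

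Genes named are the members, *Egr4*, *Il6st*, up to 4 per list with a mean of at least 1 CPM, no overlap between the groups and the largest change, and the 3 genes nearest in profile to *Egr1* and to *Fos*. Others are named as chosen after their values were seen. Motif positions count from the canonical transcript start. A gene that this rule names and a promoter sequence are not reported here.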

Additional observations from a re-analysis of the deposited data

How the results depend on the processing

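The direction of each of the 9 tested members was the same in all 117 values under other settings and in all 54 with a uterus left out, and the median of all genes shifted by at most 0.07 on the log2 scale. With limma on log2(TPM + 0.5), where the 0.5 compresses weak genes, the change was smaller by over 1.5 times in *Egr2* (−1.79), *Egr3* (−1.64), *Fosb* (−1.43), *Nr4a3* (−2.46), *Tnfrsf12a* (−1.65), *B930092H01Rik* (−1.50) and *Sox11* (−0.72). With limma voom *Egr3* had −2.47 and *Nr4a3* −3.47, and with the replicate block −2.84 and −3.58. The number of members called by the quasi-likelihood test, 0, was 6 with edgeR's exact test and with its likelihood ratio test, 5 with DESeq2, 1 (*Egr1*) without a filter and 4 at an FDR under 0.1. With each uterus left out it ranged from 0 to 3, the 3 being *Egr1*, *Fos* and *Junb* without control 2. The 26 calls over all genes became 1252 with the exact test, 1317 with the likelihood ratio test, 1546 with DESeq2, 856 at an FDR under 0.1, 105 without a filter, 88 with limma on log2(TPM + 0.5) and 7 with the legacy form. With a uterus left out they ranged from 1 to 897, with 897 without control 2. The adjusted p of *Egr1* ranged from 9.02e-08 with DESeq2 to 0.172 without *Gp130* ecKO 1. The count of members with an unadjusted p under 0.05 lay between 6 and 9, and that of members lower in every *Gp130* ecKO uterus between 7 and 8. Same-numbered uteri had correlated deviations of 0.104, 0.0691 and −0.196, so the numbers did not pair them. The replicate block gave 6 calls over all genes, 0 members called and 9 members with an unadjusted p under 0.05, *Jun* and *Fosl2* included. Outside the members, *Mapk7* changed direction with limma on log2(TPM + 0.5) (0.0147), and *Sik3* with upper quartile scaling (−0.0281), with total counts only (−0.0040) and without *Gp130* ecKO 1 (−0.0627, in a range up to 0.209 with a uterus left out), and the cause was not tested. Depth limits *Egr2*, *Egr3*, *Fosb* and *Fosl1*, none of which had over 36 counts in any *Gp130* ecKO uterus.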
